A study of Mus musculus with 8 samples.

Results

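Tumour necrosis factor (TNF), its receptors and the proteins that pass on or restrain its signal were followed at the RNA level through 10 genes in RAW264.7, a macrophage-like mouse line. The genes were chosen by name, with earlier results of these data known. They were the ligand gene Tnf, the receptor genes Tnfrsf1a and Tnfrsf1b, the signalling genes Ripk1, Traf2, Traf1 and Birc3, and Tnfaip2, Tnfaip3 and Tnip1. All 10 were among the 10639 genes of the deposited table, and all 10 passed the filter on low values used for testing. The line was transformed with Abelson leukaemia virus. It was sequenced in 4 groups of 2 libraries, all of genotype WT. One group was untreated, one received lipopolysaccharide (LPS) at 50 ng/mL for 12 h, one received anti-CD36 antibodies diluted 1 in 100 for 12 h, and one received both for 12 h. The labels of the combination state no doses and those of the untreated cells no time. No group was given a control antibody of another specificity. LPS is a bacterial product that macrophages detect with TLR4, and CD36 is a scavenger receptor for modified lipoproteins and fatty acids.

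TNF is made as a membrane protein, mainly by activated macrophages, and is shed from the cell surface. It binds TNFR1, the product of Tnfrsf1a, which is present on most cells, and TNFR2, the product of Tnfrsf1b, which is more restricted and inducible. On TNFR1, the kinase RIPK1, the adaptor TRAF2 and the ubiquitin ligases cIAP1 and cIAP2 (Birc2 and Birc3) assemble a complex that turns on NF-kB, a transcription factor that LPS also activates. NF-kB in turn induces proteins that limit the signal, among them the ubiquitin-editing enzyme A20 (Tnfaip3), which works with its binding partner ABIN1 (Tnip1).

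The stretches of 250 bases before the transcription start are shown for 4 of the genes, chosen because the ligand, the inducible receptor and the A20 pair carry the comparisons described here. The sequences are RefSeq's, on GRCm38.p6, and all 4 genes lie on the minus strand. They are written 5′ to 3′ on the gene's own strand, with matches to the NF-kB consensus or to TATAAA in capitals. Coordinates are chr17:35202008-35202257 for Tnf, chr4:145246871-145247120 for Tnfrsf1b, chr10:19015411-19015660 for Tnfaip3, and chr11:54962941-54963190 for Tnip1.
Tnf: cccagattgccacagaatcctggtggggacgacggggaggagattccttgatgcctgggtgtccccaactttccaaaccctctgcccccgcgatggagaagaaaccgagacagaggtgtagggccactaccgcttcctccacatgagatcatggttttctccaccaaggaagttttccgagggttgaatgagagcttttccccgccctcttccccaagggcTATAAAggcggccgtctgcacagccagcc
Tnfrsf1b: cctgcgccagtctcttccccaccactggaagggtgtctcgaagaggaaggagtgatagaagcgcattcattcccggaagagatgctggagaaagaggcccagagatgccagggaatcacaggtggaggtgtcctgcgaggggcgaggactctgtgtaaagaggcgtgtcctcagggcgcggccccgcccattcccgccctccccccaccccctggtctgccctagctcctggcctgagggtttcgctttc
Tnfaip3: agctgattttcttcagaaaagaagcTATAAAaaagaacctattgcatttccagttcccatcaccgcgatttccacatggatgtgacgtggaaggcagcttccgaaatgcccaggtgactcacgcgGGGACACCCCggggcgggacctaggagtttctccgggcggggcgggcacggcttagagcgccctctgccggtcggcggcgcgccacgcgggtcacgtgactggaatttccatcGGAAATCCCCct
Tnip1: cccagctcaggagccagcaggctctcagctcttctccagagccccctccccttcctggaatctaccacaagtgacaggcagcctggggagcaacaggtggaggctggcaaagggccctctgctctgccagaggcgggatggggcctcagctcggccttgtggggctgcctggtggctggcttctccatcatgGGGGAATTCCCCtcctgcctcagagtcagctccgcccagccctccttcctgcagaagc
Both strands were searched. Tnf had TATAAA starting 29 bases before the start site. Tnfaip3 had the NF-kB consensus at 125 and 12 bases before the start and TATAAA at 225. Tnip1 had overlapping consensus matches on both strands, beginning 58 to 56 bases before the start, and Tnfrsf1b had neither motif in these letters. Of 32851 RefSeq windows of the same length, 3.90% held the NF-kB consensus and 12.4% held TATAAA. All 10 genes had a window, and Tnfaip3 and Ripk1 had a second one for another start. Apart from the Tnf, Tnip1 and first Tnfaip3 windows, none of the 12 windows held either motif. A match describes the letters and not a bound site.

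Levels are FPKM, fragments per kilobase of transcript scaled to the reads of a library, so that genes can be set side by side. The depth recovered from the values was 47909119 to 71705260 reads per library. The 10 genes had 1021 to 139877 reads each in a library. Of the 10 macrophage markers listed, 9 were in the table, and their summed FPKM was 3634 to 5406. Of the fibroblast, epithelial and endothelial markers none was in the table, and of the T and NK cell, B cell and granulocyte markers 1 of 7, 2 of 5 and 1 of 6 were. Their summed FPKM was 1.72 to 4.32, 68.0 to 110 and 2.97 to 4.92 in that order. The table holds no value of 0, so a marker missing from it was not read as an absent transcript. The libraries of anti-CD36 alone differed most from each other, with an SD of the replicate difference over genes of 0.45 on the log2 scale against 0.14 to 0.22 in the other groups. The share of all FPKM that came from mitochondrially encoded genes was 15.7% in the first anti-CD36 library, 6.59% in the second, and 3.28% to 6.62% in the other 6.

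In untreated cells the order of the mean levels ran from Tnf (52.9 FPKM) through Tnip1 (40.2), Tnfrsf1a (25.5), Tnfaip2 (21.2), Birc3 (12.7), Tnfrsf1b (9.28), Ripk1 (6.80), Traf2 (6.50) and Tnfaip3 (5.23) to Traf1 (4.65). Of neighbours in this order, only Ripk1 and Traf2 had overlapping replicate ranges. With LPS the order was Tnf (1289 FPKM), Tnfrsf1b (106), Tnfaip2 (99.7), Tnip1 (51.1), Traf1 (33.9), Birc3 (33.4), Tnfrsf1a (19.4), Tnfaip3 (11.5), Traf2 (6.28) and Ripk1 (3.41). There Tnfrsf1b overlapped Tnfaip2, and Traf1 overlapped Birc3. Tnfrsf1b thus stood sixth of the 10 without stimulus and second with LPS.

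**Figure D1:**
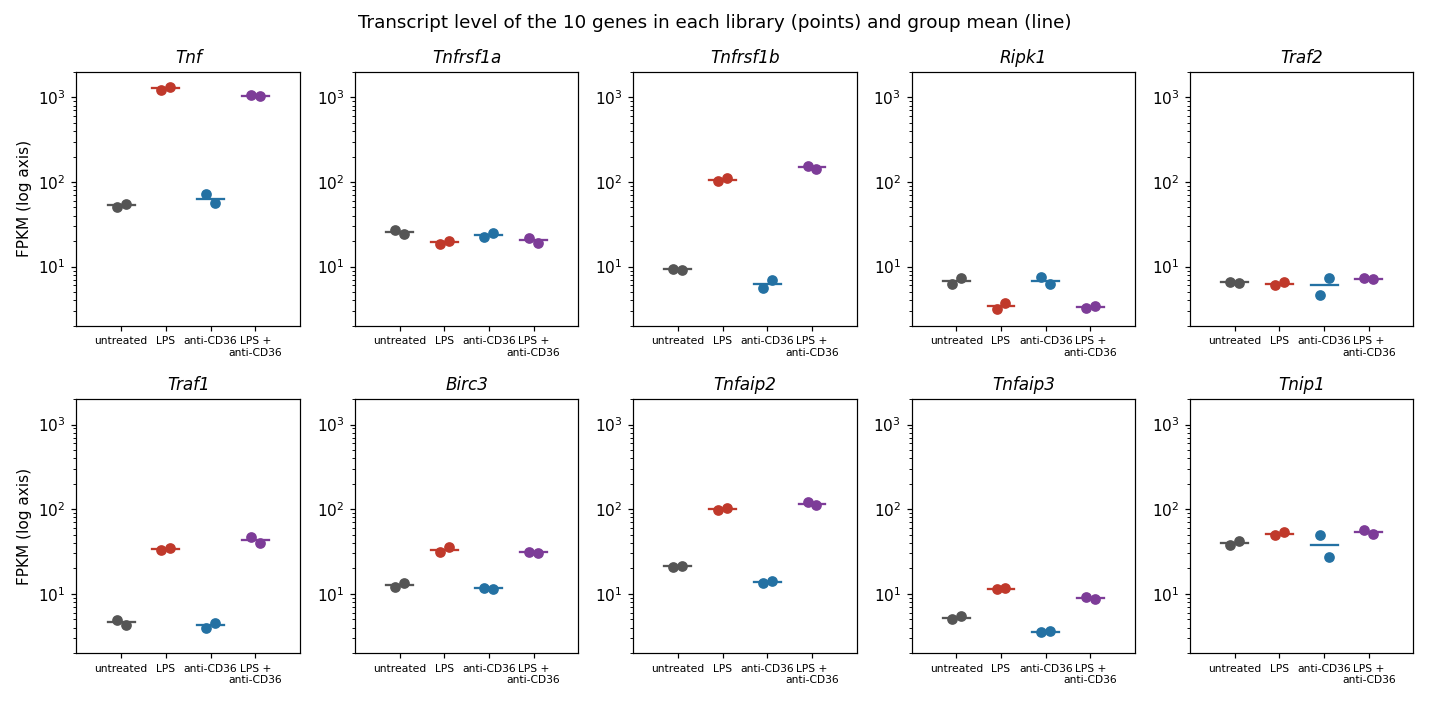
FPKM on a log axis for each of the 10 genes, with 1 point per library, a line at the group mean and the 4 groups along the horizontal axis. Tnf lies between 50.8 and 71.4 in the 4 libraries without LPS and between 1025 and 1343 in the 4 with LPS, while Traf2 stays between 4.65 and 7.44 throughout.

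The first comparison asked how LPS alone moved these genes. LPS raised 6 of the 10 (Tnf, Tnfrsf1b, Traf1, Tnfaip2, Birc3 and Tnfaip3) and lowered 2 (Ripk1 and Tnfrsf1a), by limma's test over 10289 genes with a Benjamini-Hochberg adjusted p under 0.05. Tnip1 and Traf2 did not pass. LPS changed 54.6% of all genes tested, 17% upwards and 37.5% downwards, so the count of 8 is read against that background. The median difference of the 10 genes was 1.17 on the log2(FPKM + 1) scale, against -0.19 over all genes tested. As the genes were chosen with earlier results known, this contrast is a description. Under median-ratio size factors the median of all genes became 0.00, and the share of called genes that were higher went from 31.2% to 49.3%. The labels name 10x Genomics, but the values come as a single number for each gene and library and were read as bulk RNA. In bulk RNA, fewer cells with a transcript and less RNA per cell cannot be told apart. The labels do not say whether the 2 libraries of a group were grown apart. Each p-value therefore reflects how far these libraries scatter, and that scatter may be technical. The scatter was pooled over all 4 groups, so the wider spread of the anti-CD36 libraries enters every comparison.

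Tnf (ENSMUSG00000024401.14, chr17:35199381-35202007, mm10, minus strand) stood at 50.8 and 55.0 FPKM in the untreated libraries and at 1235 and 1343 with LPS. Both LPS libraries were far above both untreated ones, and 30.6% of all genes tested had both LPS libraries above. The mean rose 24.4-fold, a log2 difference of 4.58 ± 0.16 (SE, n = 2 per group, limma adjusted p = 1.82e-06). By mean level Tnf moved from rank 905 to rank 25 of the 10639 genes. Its share of the summed FPKM of the 10 genes was 28.1% and 29.1% in untreated cells and 77.9% in both LPS libraries.

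The receptors went opposite ways. Tnfrsf1b (chr4:145213463-145246870, minus strand) measured 9.37 and 9.18 FPKM untreated and 102 and 111 with LPS, with no overlap. The log2 difference was 3.39 ± 0.13 (SE, n = 2 per group, limma adjusted p = 2.32e-06), and the means differed 11.5-fold. Tnfrsf1a (chr6:125349362-125362484, plus strand) measured 27.0 and 24.1 untreated and 18.7 and 20.1 with LPS, also without overlap but close together. In 54.5% of all genes tested both LPS libraries lay below both untreated ones. The difference of Tnfrsf1a was -0.38 ± 0.12 (SE, limma adjusted p = 0.0309). This call was lost with quantile normalization, size factors, a length trend removed, the replicate block, and without either untreated or either LPS library, with adjusted p up to 0.313. Within a library, the FPKM of Tnfrsf1b relative to Tnfrsf1a was 0.347 and 0.382 in untreated cells and 5.46 and 5.53 with LPS. Tnfrsf1b was thus the lower of the pair in both untreated libraries and the higher in both LPS libraries. The ratios are given as a description, and no test was run on them.

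Among the signalling genes, Traf1, which encodes an inducible TRAF protein that binds TRAF2 and TNFR2, rose from 4.95 and 4.34 FPKM to 32.7 and 35.1. The log2 difference was 2.63 ± 0.13 (SE, limma adjusted p = 8.13e-06). Traf2, the adaptor it pairs with, measured 6.56 and 6.45 untreated and 6.03 and 6.53 with LPS, and these ranges overlapped. Its difference was -0.04, with a 95% interval of -0.46 to 0.37. The FPKM of Traf1 relative to Traf2 was 0.755 and 0.673 untreated and 5.42 and 5.38 with LPS.

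Birc3, the gene of cIAP2, rose from 11.9 and 13.5 FPKM to 30.8 and 36.0 (log2 difference 1.33 ± 0.12 SE, limma adjusted p = 0.000102). Birc2, the gene of cIAP1, rose as well, from 5.19 and 5.54 to 14.2 and 15.1 (1.30, adjusted p = 0.00221). The level of Birc3 relative to Birc2 was 2.30 and 2.43 untreated and 2.18 and 2.38 with LPS, and these ranges overlapped. Ripk1, the gene of the kinase on the receptor complex, went from 6.21 and 7.39 to 3.14 and 3.68. Both LPS libraries were below both untreated ones, as in 54.5% of all genes tested, and the log2 difference was -0.82 ± 0.13 (SE, limma adjusted p = 0.00159). Parts of the Ripk1 exons overlap Gm17084, a pseudogene on the same strand (511 bases), and Serpinb6a on the opposite strand (241 bases), so its level is uncertain to that extent.

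Of the TNF-induced and feedback genes, Tnfaip2, a TNF-induced gene also known as M-Sec for its part in membrane nanotubes, rose from 20.9 and 21.5 FPKM to 96.8 and 103 (2.18 ± 0.10 SE, limma adjusted p = 7.95e-06). Over 314 bases its exons overlap an antisense gene, Gm40578, and strand use in counting is not known. Tnfaip3 (A20) rose from 4.99 and 5.46 to 11.3 and 11.8 (1.01 ± 0.10 SE, adjusted p = 0.000172). Its rise was 2.21-fold, the smallest of the 6.

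Tnip1 (ABIN1) measured 38.1 and 42.2 untreated and 49.0 and 53.3 with LPS. These libraries did not overlap, as in 85.1% of all genes tested (30.6% with LPS above), and the difference of 0.34 did not pass (adjusted p = 0.266, 95% interval -0.23 to 0.91). Tnip1 passed in a fit on only these 2 groups and without either anti-CD36 library. The level of Tnfaip3 relative to Tnip1 was 0.131 and 0.129 untreated and 0.231 and 0.221 with LPS.

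**Figure D2:**
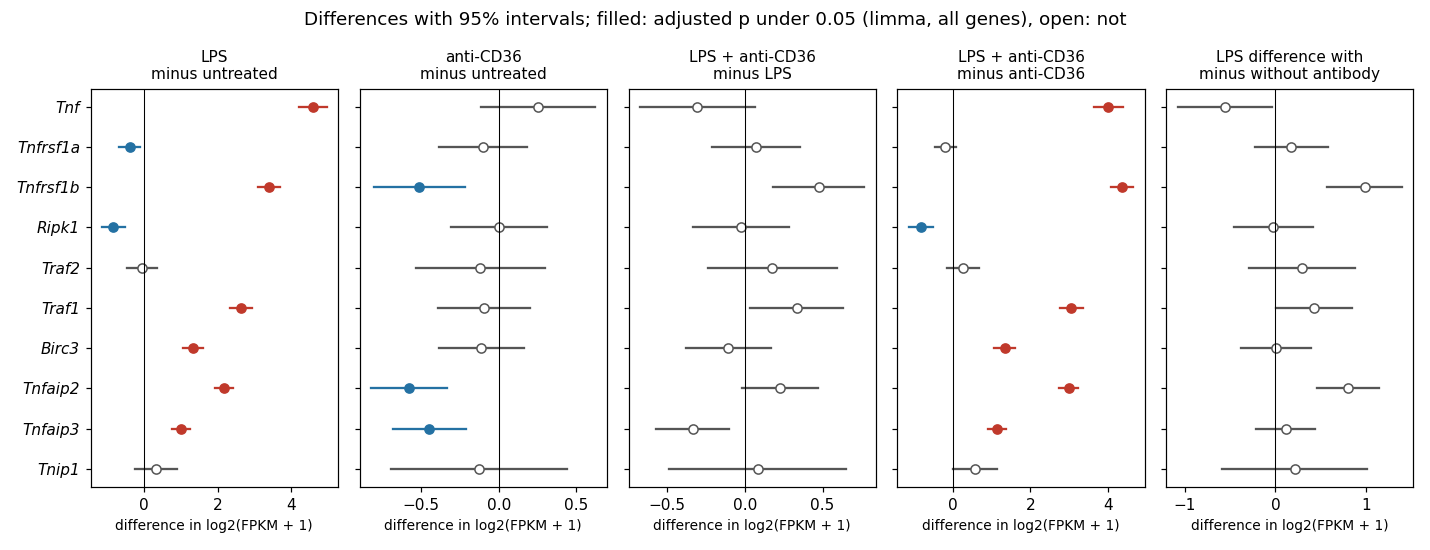
Differences in log2(FPKM + 1) for the 10 genes in 5 comparisons, with 95% intervals, each panel on its own horizontal axis; filled points passed an adjusted p of 0.05 over all genes tested. LPS minus untreated has 8 filled points, anti-CD36 minus untreated has 3, all to the left of 0, and the panels of the combination against LPS and of the interaction have none.

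The second comparison asked what the antibodies did without LPS. Tnfaip2, Tnfrsf1b and Tnfaip3 fell and the other 7 genes did not pass. Of all genes tested 13.7% were called, 3.04% higher and 10.6% lower. The median difference of the 10 genes was -0.12, against -0.08 over all genes. Of the called genes 22.3% were higher, and 42.3% with size factors.

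Tnfaip2 measured 20.9 and 21.5 FPKM untreated and 13.6 and 14.1 with the antibodies, a log2 difference of -0.58 ± 0.10 (SE, n = 2 per group, limma adjusted p = 0.0187). Tnfrsf1b went from 9.37 and 9.18 to 5.58 and 6.89 (-0.51 ± 0.13 SE, adjusted p = 0.0383). Tnfaip3 went from 4.99 and 5.46 to 3.53 and 3.60 (-0.45 ± 0.10 SE, adjusted p = 0.0305). For each of these 3 genes both antibody libraries lay below both untreated ones, as in 35.9% of all genes tested (52.6% without overlap in either direction). Their direction held in all 21 alternatives.

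The calls were less firm than the direction. A fit on only these 2 groups called none of the 10, and none of the 9987 genes tested. Quantile normalization, size factors and the replicate block each called 1 of the 10, and 1104, 1013 and 863 of all 10289 genes. The 3 calls were lost without either untreated or either LPS library, and those of Tnfrsf1b and Tnfaip3 also without either combination library. The call of Tnfaip3 was also lost with the length trend removed, and that of Tnfrsf1b with a pseudocount of 5. With 1 library left out at a time, the difference was -0.60 to -0.56 for Tnfaip2, -0.64 to -0.38 for Tnfrsf1b and -0.50 to -0.39 for Tnfaip3. Over all 21 alternatives the ranges were wider: -0.68 to -0.46 for Tnfaip2, -0.64 to -0.35 for Tnfrsf1b and -0.54 to -0.24 for Tnfaip3. Anti-CD36 replicate 1 was the library with the high mitochondrial share. What part that share has in these values was not tested.

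Tnf measured 71.4 and 55.8 FPKM with the antibodies, just above the untreated libraries, and its difference of 0.25 did not pass (adjusted p = 0.323, 95% interval -0.12 to 0.62). Among the alternatives it passed in 1, the fit without anti-CD36 replicate 2. Tnip1 measured 49.1 and 27.2, one library above and one below the untreated pair. Traf2 did the same at 4.65 and 7.44. These are the 2 genes of the 10 whose replicates lay furthest apart in relative terms in this group. The level of Birc3 relative to Birc2 was also split, at 2.59 and 1.34, and that of Tnfaip3 relative to Tnip1 at 0.0718 and 0.132.

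The third comparison asked whether the antibodies altered the levels reached with LPS. None of the 10 genes passed limma's test, 3 had an unadjusted p under 0.05 (Tnfrsf1b, Tnfaip3 and Traf1), as had 2005 of the 10289 genes tested, and voom on the recovered reads called none. Of all genes tested 1.78% were called, 0.36% higher and 1.42% lower. Of the called genes 20.2% were higher, or 32.9% with quantile normalization. The median difference was 0.08 over the 10 genes and -0.02 over all genes.

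Tnfrsf1b measured 155 and 142 FPKM with LPS and antibodies against 102 and 111 with LPS. Both combination libraries were higher, and the log2 difference was 0.48 ± 0.13 (SE, n = 2 per group, limma adjusted p = 0.103). Traf1 measured 46.5 and 39.6 against 32.7 and 35.1, again without overlap (0.33, adjusted p = 0.210). Both combination libraries lay above both LPS libraries in 28.5% of all genes tested. Tnfaip2 measured 121 and 113 against 96.8 and 103 (0.22, adjusted p = 0.294).

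Tnfaip3 and Tnf lay on the other side. Tnfaip3 measured 9.28 and 8.60 FPKM in the combination and 11.3 and 11.8 with LPS (-0.34 ± 0.10 SE, limma adjusted p = 0.129). Tnf measured 1058 and 1025 against 1235 and 1343, a difference of -0.31 with a 95% interval of -0.68 to 0.06 (adjusted p = 0.346). Both combination libraries lay below both LPS libraries for these 2 genes, as for 35.6% of all genes tested, and ranges did not overlap in either direction in 64.1%. A fit on only these 2 groups called 3 genes, Tnfrsf1b and Traf1 higher and Tnfaip3 lower, with adjusted p of 0.00373, 0.0259 and 0.0230. That fit called 2384 of 9772 genes tested, against 183 of 10289 in the main fit. With 1 library left out at a time, the difference of Tnfrsf1b was 0.41 to 0.54 and that of Tnfaip3 -0.38 to -0.29.

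The shares and ratios within a library moved with these values. Tnf made up 70.0% and 71.2% of the summed FPKM of the 10 genes in the combination. The level of Tnfrsf1b relative to Tnfrsf1a was 7.14 and 7.38, above both LPS libraries. That of Traf1 relative to Traf2 was 6.31 and 5.60, and that of Tnfaip3 relative to Tnip1 was 0.162 and 0.167, below both LPS libraries and above both untreated ones.

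**Figure D3:**
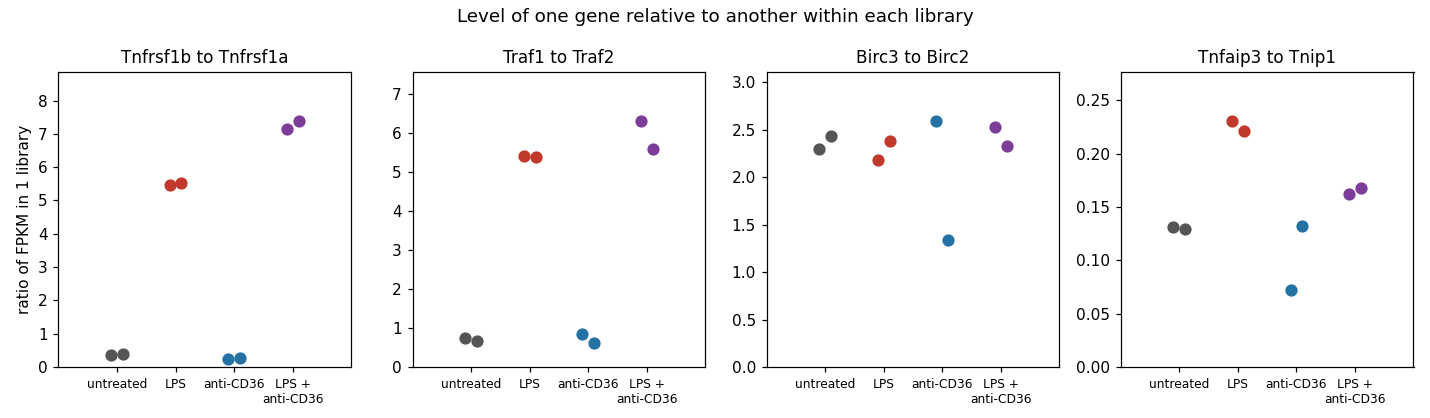
Ratio of the FPKM of 2 genes within each library, 1 point per library, for 4 pairs of genes, with axes from 0. The ratio of Tnfrsf1b to Tnfrsf1a runs from 0.250 to 0.382 without LPS and from 5.46 to 7.38 with it, while that of Birc3 to Birc2 is between 2.18 and 2.59 in 7 libraries and 1.34 in anti-CD36 replicate 2.

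The LPS response was also measured in the presence of the antibodies, by setting the combination against anti-CD36 alone. Here 7 of the 10 genes passed, against 47.1% of all genes tested (15.4% higher and 31.7% lower). The 6 genes that LPS raised without the antibodies were higher here too: Tnfrsf1b by 4.37, Tnf by 4.02, Traf1 by 3.06, Tnfaip2 by 2.99, Birc3 by 1.33 and Tnfaip3 by 1.12 on the log2 scale (limma adjusted p from 6.04e-07 to 0.000119). Ripk1 was lower, at 3.26 and 3.42 FPKM against 7.48 and 6.17 (-0.85, adjusted p = 0.00169). Tnfrsf1a (21.7 and 19.2 FPKM against 22.3 and 25.1), Tnip1 and Traf2 did not pass. Ranges of Tnfrsf1a and Tnip1 did not overlap, against 70.4% of all genes tested, 45.5% with the combination below and 24.9% with it above. Of the called genes 32.6% were higher, and 50.3% with size factors.

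The difference between the 2 LPS responses was tested by the interaction, the LPS difference with the antibodies minus that without. None of the 10 passed limma's test on all 8 libraries, 4 had an unadjusted p under 0.05 (Tnfrsf1b, Tnfaip2, Tnf and Traf1), and voom called none. Over all genes limma called 1 gene of 10289, 0.00972%, with 1396 at an unadjusted p under 0.05. The estimate for Tnfrsf1b was 0.99 ± 0.18 (SE, limma adjusted p = 0.208), higher than that of 99.8% of the genes tested, and for Tnfaip2 it was 0.81 ± 0.15 (adjusted p = 0.208, 99.5%). For both genes the antibody libraries were the lowest of all groups and the combination libraries the highest. With 1 library left out at a time, the estimate was 0.86 to 1.12 for Tnfrsf1b and 0.75 to 0.86 for Tnfaip2. The calls of both genes changed without either anti-CD36 library, in fits that hold 1 library of that group. For Tnf the estimate was -0.56 (95% interval -1.08 to -0.04, adjusted p = 0.347).

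The rest of the pathway was taken from 9 lists of 105 symbols, also chosen with earlier results known, of which 77 genes were tested. With LPS 32 of them rose and 22 fell, where 17% of all genes tested rose and 37.5% fell, and their median difference was 0.13 against -0.19 over all genes. All 4 tested ligands of the TNF superfamily rose, of 16 listed. Lta and Tnfsf15 were at 0.0649 to 0.378 and 0.0931 to 0.270 FPKM in the libraries without LPS. They passed the filter of 1 FPKM only through the libraries with LPS, so their place in this count was tied to the filter. Lta, the gene of lymphotoxin alpha and a neighbour of Tnf, went from 0.0649 and 0.182 FPKM to 31.0 and 33.9. Tnfsf15 rose by 3.91, Tnfsf9, the ligand of 4-1BB, by 2.57, and Ltb by 1.61 on the log2 scale.

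Of the other receptors of the superfamily 7 of 14 tested rose and 5 fell, where 17% of all genes tested rose and 37.5% fell. Cd40, a costimulatory receptor, went from 1.07 and 0.987 FPKM to 51.4 and 45.2 (4.60, limma adjusted p = 3.55e-07), and Fas, a death receptor, rose by 2.38. Fas was at 0.101 to 0.257 FPKM in the libraries without LPS and also passed the filter only through the libraries with LPS. Tnfrsf12a and Tnfrsf13b rose by 1.20 and 1.15. In the list of shedding and mRNA control 7 of 12 rose and 2 fell. Zfp36 (tristetraprolin, which destabilizes Tnf mRNA) rose by 3.70, Zc3h12a (Regnase-1, an RNase for inflammatory transcripts) by 2.34 and Rhbdf2 (iRhom2, a partner of the TNF sheddase) by 1.39. Zfp36l2 fell by 2.08, and the sheddase gene Adam17 itself did not pass (28.6 and 30.1 FPKM against 29.9 and 32.3).

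In the receptor complex and kinases 5 of 20 rose and 6 fell, where 17% of all genes tested rose and 37.5% fell. The counts of the next lists stand against the same shares. Ikbke, an IKK-related kinase, rose by 2.38 and its binding partner Tank by 1.19, while Rbck1 (HOIL-1, of the linear ubiquitin ligase) fell by 1.00 and the deubiquitinase gene Cyld by 0.44. The Cyld call was lost in 6 of 19 alternatives, among them quantile normalization, size factors and a length trend removed (adjusted p up to 0.196). Among A20 partners and relatives 3 of 6 rose and 1 fell. Tnip3 rose by 0.94, Rnf11 by 0.86 and Tnip2 by 0.56, and Otud7b fell by 0.35. The Otud7b call was lost in 9 of 21 alternatives, where its difference shrank to as little as -0.07 (adjusted p up to 0.610), and the Tnip2 call without untreated replicate 2 or LPS replicate 2. In the cell death arm 3 of 9 rose and 3 fell. Cflar (c-FLIP, the inhibitor of caspase-8) rose by 2.20 and Mlkl, the effector of necroptosis, by 1.40, while Fadd fell by 1.24 and Bid by 1.11. Fadd was at 0.593 to 0.763 FPKM in the libraries with LPS. It passed the filter of 1 FPKM only through the libraries without LPS, so its place among the falls was tied to the filter. The same held for Tnfaip8l1, of the other TNFAIP genes, at 0.245 to 0.312 FPKM with LPS. Casp8, the initiator caspase, did not pass (0.13, adjusted p = 0.327).

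Among other TRAF genes Traf4 rose by 0.65 and Traf3 and Traf7 fell by 0.91 and 0.66. Traip, listed with them though it encodes a TRAF-interacting protein and not a TRAF, fell by 1.19. Tnfaip8 rose by 1.07 and Tnfaip8l2 fell by 0.72, a call lost with size factors and without untreated or LPS replicate 1. Nfkb2, the precursor gene of the noncanonical NF-kB arm, rose by 2.14, and it was the 1 of 3 genes on that list to pass.

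With the antibodies alone 4 of the 77 genes rose and 8 fell, a count near the background of 3.04% higher and 10.6% lower over all genes tested. Cflar fell by 0.77, from 6.53 and 7.72 FPKM to 3.50 and 4.03 (limma adjusted p = 0.0156). Casp8 rose by 0.54 and Mlkl by 0.42, Tax1bp1 by 0.68 and Tnip3 by 0.61. Otud7b fell by 0.70, Adam10 by 0.56, Traf3 by 0.52, Traf6 by 0.48, Zfp36l2 by 0.48, Rc3h1 by 0.47 and Spata2 by 0.41. These calls differed in how often they held: Tnip3 passed in 18 of 21 alternatives, Cflar in 17, Otud7b in 15, Casp8, Tax1bp1 and Traf3 in 13, Adam10 in 12, Mlkl and Zfp36l2 in 8, Traf6 in 7 and Spata2 in 3, and Rc3h1 in 7 of 20. All 12 were lost without either untreated library. The fit on only these 2 groups called no gene of the table, with 2017 at an unadjusted p under 0.05.

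In the combination against LPS 3 of the 77 genes passed, where 0.36% of all genes tested were higher and 1.42% lower. Cflar measured 17.7 and 19.3 FPKM against 35.5 and 36.9, and fell by 0.93 (limma adjusted p = 0.0214). Rc3h1, the gene of Roquin-1, which represses Tnf mRNA, measured 5.40 and 6.66 against 12.4 and 11.6, and fell by 0.89 (adjusted p = 0.0245). Lta measured 57.1 and 54.5 against 31.0 and 33.9, and rose by 0.76 (adjusted p = 0.0274). Leaving out any LPS or combination library ended all 3 calls. Those of Lta and Rc3h1 were also lost with the replicate block and without either untreated library. The Lta call was lost as well with a pseudocount of 0.1, without mitochondrial genes and with the length trend removed. Tnfsf9 measured 120 and 113 against 189 and 154 and did not pass (adjusted p = 0.120). No gene of the 77 passed the interaction.

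**Figure D4:**
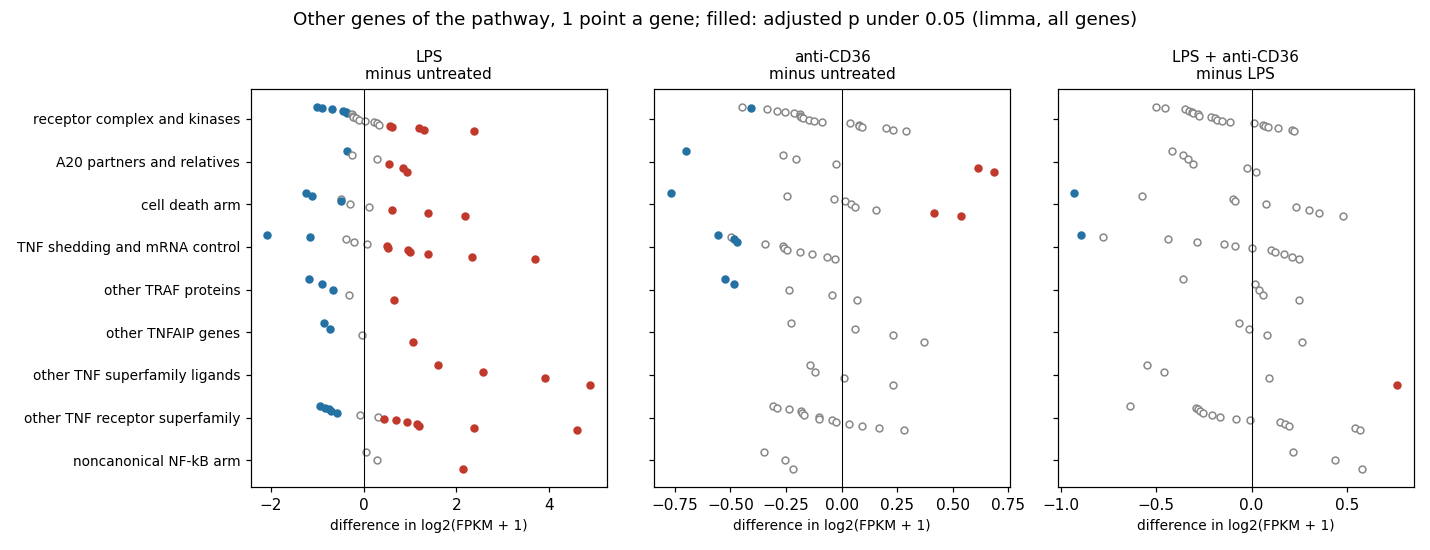
Differences in log2(FPKM + 1) for the 77 tested genes of the 9 lists, 1 point per gene, in 3 comparisons with separate horizontal axes; red filled points rose and blue filled points fell at an adjusted p under 0.05. With LPS 54 points are filled, with anti-CD36 12, and in the combination against LPS 3.

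The genes most like 3 of the members across the 8 libraries were found by Pearson's r of log2(FPKM + 1) among 6467 genes. The 8 points share groups, 4 with LPS and 4 without, and r is given as a description. For Tnf these were Dhrs3, Ptgs2, Phlda1, Acod1 and Rgs16 (r from 0.997 to 0.999). For Tnfaip3 they were Trim25, Rsbn1, Vsir, Cflar and Dcbld2 (0.992 to 0.995). For Traf1 they were Ccrl2, Arl5c, Rnd1, Tcirg1 and Ehd1 (0.999 each). Ptgs2, the gene of cyclooxygenase-2, went from a mean of 1.75 FPKM to 2132 with LPS and 1453 in the combination. Acod1, the gene of the enzyme that makes itaconate, went from 19.2 to 1459 and 1656.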

How the data were processed

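RNA was measured in 8 libraries of RAW264.7 cells. The authors deposited FPKM values, 1 column per library. Per the submitters' processing notes, the tools and builds were HISAT2 2.0.5, mm10 and hg38. What each was used for, the read counter, the annotation and strand use are not given in the sources used here. No value was 0 in any library. The depth was found from single-read steps in 125 short single-exon genes and refined over all genes with a length. With that depth and GENCODE M21 union exon lengths, 95.7% of the values came out as whole reads within 0.05 for the 10366 genes with a length.

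A gene was tested where 2 or more libraries reached an FPKM of 1 (10289 genes). The test was limma 3.58.1 (R 4.3.3), run on log2(FPKM + 1), which understates changes of low genes. The model had 4 group means, empirical Bayes with a trend and Benjamini-Hochberg adjustment over all genes tested. The method was tested on simulated data. The genes and lists were chosen with earlier results of these data known. Named pathway genes are the up to 4 called with the largest difference per list and comparison, plus Birc2, Tnfsf9, Adam17, Cyld and Casp8. The alternatives were pseudocounts of 0.1 and 5, other filters, quantile normalization, size factors, no mitochondrial genes, a length trend removed, no trend, a difference of at least 1, only the groups compared, a replicate block, and each library left out. Voom on recovered reads and a crossed block were chosen after seeing the data.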

Additional observations from a re-analysis of the deposited data

How the results depend on the processing

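The count of the 10 genes called stayed at 6 to 9 for LPS and 6 to 8 for the combination against anti-CD36 in every alternative run. For anti-CD36 it was 0 with a difference of at least 1 or only the groups compared, and 1 with quantile normalization, size factors or the replicate block. For the combination against LPS it was 3 with only the groups compared, where 2384 of 9772 genes tested were called. With a library left out a group holds 1 library, and the counts for these 2 comparisons and the interaction moved in such fits. Replicate numbers did not pair the libraries in every group: across genes, the replicate differences of untreated cells correlated with those of the combination at 0.530, of LPS at 0.209 and of anti-CD36 at -0.645. The other 3 pairs of groups gave 0.0054 for LPS and the combination, -0.176 for LPS and anti-CD36, and -0.337 for anti-CD36 and the combination. With the replicate block the counts were 7 for LPS, 1 for anti-CD36, 0 for the combination against LPS, 7 against anti-CD36 and 0 for the interaction. With the anti-CD36 numbers crossed they were 8, 3, 0, 7 and 0 in that order. The cause of these changes was not tested.

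Some small differences, none called in the main analysis, changed sign. For LPS, Traf2 was 0.18 with quantile normalization, 0.16 with size factors and 0.26 with the length trend removed. Without mitochondrial genes Adam17 was -0.13 and Casp8 -0.085, and against anti-CD36 they were -0.15 and -0.14. For anti-CD36, quantile normalization gave Traf1 0.056 and Traf2 0.030, the length trend removed gave Traf1 0.15, Traf2 0.010, Birc3 0.013 and Cyld 0.088, and Ripk1 was -0.081 without mitochondrial genes. For the combination against LPS, quantile normalization gave Tnip1 -0.00039 and Ripk1 0.082, size factors gave Ripk1 0.020, no mitochondrial genes gave Tnfrsf1a -0.011 and Tnip1 -0.0041, and the length trend removed gave Tnfrsf1a -0.013, Ripk1 0.14 and Cyld 0.043. For the interaction, Birc3 was -0.0088 with a pseudocount of 5, -0.11 with quantile normalization, -0.038 with size factors, -0.072 with the length trend removed and -0.025 with voom. Cyld was -0.015 with a pseudocount of 0.1, -0.046 with quantile normalization, -0.048 with size factors and -0.046 with the length trend removed.

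With a library left out, the range for LPS was -0.093 to 0.0046 for Traf2. For anti-CD36 it was -0.41 to 0.17 for Traf2, -0.12 to 0.12 for Ripk1, -0.54 to 0.29 for Tnip1 and -0.19 to 0.59 for Birc2. For the combination against LPS it was -0.22 to 0.0017 for Birc3, -0.11 to 0.065 for Ripk1 and -0.011 to 0.16 for Tnfrsf1a. Against anti-CD36 it was -0.039 to 0.54 for Traf2 and -0.028 to 0.14 for Adam17. For the interaction it was -0.11 to 0.054 for Adam17, -0.78 to 0.00088 for Birc2, -0.10 to 0.11 for Birc3, -0.13 to 0.14 for Cyld, -0.15 to 0.094 for Ripk1 and -0.20 to 0.63 for Tnip1.

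With 1 added to both FPKM values, the ratio of Tnfrsf1b to Tnfrsf1a was 5.27 for LPS, 0.292 for anti-CD36 and 6.97 for both. That of Traf1 to Traf2 was 4.79 with LPS and 5.35 with both, and that of Birc3 to Birc2 was 2.15 untreated. That of Tnfaip3 to Tnip1 was 0.151 untreated, 0.241 with LPS and 0.180 with both.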
